A study of Mus musculus with 9 samples.

Results

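Photoreceptors end their response to light with a set of dedicated proteins, and 10 genes for these proteins, Grk1, Rgs9, Rgs9bp, Gnb5, Gucy2e, Gucy2f, Guca1a, Guca1b, Rcvrn and Slc24a1, were followed in mouse retina lacking the Tet enzymes. They were chosen by function and picked out by gene symbol from the deposited table, where all 10 were found among 55487 genes, and all 10 passed the filter on low values that left 21330 genes for testing. Expression was measured by bulk RNA-seq of whole retina at postnatal day 21 (P21) in C57 BL/6J mice. Cre- retinas carried no Cre transgene, tHet retinas were Tet1/2/3 loxp/+ and Chx10-Cre-GFP+, and Tet tcKO retinas were Tet1/2/3 loxp/loxp and Chx10-Cre-GFP+. There were 3 libraries per genotype, and each pooled the retinas of 2 animals. Chx10-Cre is active in retinal progenitors and is mosaic, for which reason the study bred its Cre+ animals to hold 2 transgene copies, while the Cre- animals came from separate breeders. Absence of Cre and breeding line therefore cannot be told apart, and tHet is the control that shares the transgene.

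Once a visual pigment has absorbed light, the opsin kinase Grk1 phosphorylates it so that arrestin can bind. The GTPase-activating complex of Rgs9, Gnb5 and the membrane anchor Rgs9bp makes transducin hydrolyse its GTP. Closure of the cyclic nucleotide-gated channel lets calcium fall while the exchanger Slc24a1 goes on removing it from the rod outer segment, and low calcium acts through the activating proteins Guca1a and Guca1b on the guanylate cyclases Gucy2e and Gucy2f, which restore cGMP. Recoverin (Rcvrn) restrains Grk1 while calcium is high. Slc24a1 is the rod exchanger, whereas most of the other members serve both rods and cones.

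All 10 genes had lower mean levels in Tet tcKO than in Cre- and tHet retina, but by very different amounts. Against Cre-, 7 of 10 fell by the rule used here, a log2 fold change (log2FC) of at least 1 in either direction with a limma adjusted p under 0.01. These were Guca1b, Slc24a1, Grk1, Gucy2f, Rcvrn, Guca1a and Gnb5. Of all 21330 genes tested, 1.57% fell by that rule in this comparison. Against tHet, 6 of 10 fell (the same genes without Guca1a), beside 1.61% of all genes. Rgs9, Rgs9bp and Gucy2e did not pass in either comparison. The median log2FC of the 10 genes was −1.72 against Cre- and −1.56 against tHet, beside 0.00 and −0.06 over all genes tested. Every Tet tcKO library lay below every Cre- library for 9 of 10 members (9.6% of all genes), the exception being Rgs9, and below every tHet library for 8 of 10 (9.68% of all genes), the exceptions being Rgs9 and Guca1a. Both comparisons share the Tet tcKO libraries. Without Tet tcKO replicate 3, the members called lower were 5 against Cre- and 4 against tHet, and the genes called lower among all tested went from 334 to 99 and from 343 to 89. In whole retina, fewer cells of a type and less RNA per cell cannot be told apart.

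**Figure D1:**
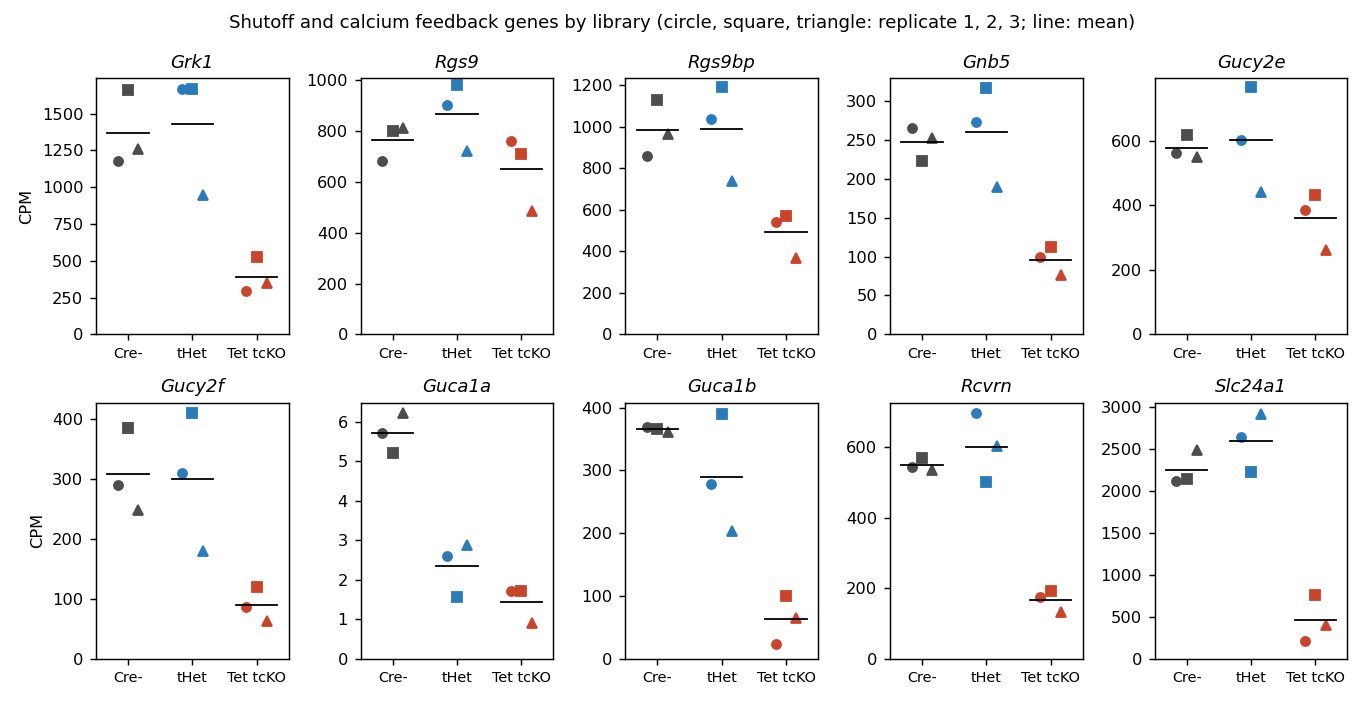
Level of each member in CPM (a gene's reads scaled to the same library total, vertical axes from 0, with a range of their own per gene) in the 3 libraries of each genotype, with the mean as a line. The Tet tcKO points lie below all Cre- points for 9 of 10 members, and Rgs9 overlaps. For Guca1a the tHet points also lie below all Cre- points, a difference that did not pass (limma adjusted p = 0.511).

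Reads counted on genes numbered 9627927 to 21108256 per library, so that 3 reads, taken as the detection floor, equal 0.142 to 0.312 CPM; the floor covers counting error only. The deposited values count whole genes, so that RNA from the parts of Tet1, Tet2 and Tet3 outside the deleted exons is included. Tet3 stood at 235 ± 29.2 CPM for Cre-, 237 ± 71.5 CPM for tHet and 120 ± 28.2 CPM for Tet tcKO (SD, n = 3), whereas the ranges of Tet1 and of Tet2 overlapped between genotypes. A ribosomal RNA gene, CT010467.1, took 28.7% of the reads of Tet tcKO replicate 3, 3.72% of tHet replicate 3 and at most 0.226% of any other library. It lowers the CPM of all other genes in Tet tcKO replicate 3. With CT010467.1 left out of the totals, the median log2FC of all genes moved from 0.00 to 0.14 against Cre-, calls over all genes moved from 434 higher and 334 lower to 613 higher and 222 lower, and against tHet from 297 higher and 343 lower to 427 higher and 215 lower. The members called were still 7 and 6 with CT010467.1 left out, and their log2FC relative to the median of all genes ran from −2.75 for Guca1b to −0.24 for Rgs9 against Cre-, compared with −2.77 and −0.26 on the deposited scale.

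The stretch before the start of transcription was looked at for the members that fell together and for those that did not pass. RefSeq sequence of GRCm38.p6 was at hand for 7 of 10 members: Gnb5, Grk1, Guca1a, Gucy2e, Gucy2f, Rgs9 and Slc24a1. CRX, a homeodomain factor of all photoreceptors, is known to bind TAATCC, and the rod factor NRL binds elements that hold TGCTGA. In the 250 bases before the start, TAATCC or its reverse complement GGATTA stood in 4 of 7 members, compared with 6.25% of 32851 mouse promoter windows of the same length. TGCTGA or its reverse complement TCAGCA stood in 1 of 7, compared with 16.1% of windows. These are matches of letters, with no measurement of binding. The 5 windows with a match are shown 5′ to 3′ on the strand of the gene, with the match in capitals; the first 4 hold the CRX-type letters and the last, Rgs9, the NRL-type letters. They lie at chrX:142196937-142197186 (minus strand) for Gucy2f, chr11:69237023-69237272 (minus strand) for Gucy2e, chr17:47400607-47400856 (minus strand) for Guca1a, chr9:75306038-75306287 (plus strand) for Gnb5 and chr11:109298182-109298431 (minus strand) for Rgs9. The RefSeq starts of Gucy2f, Guca1a and Rgs9 lie upstream of the GENCODE ones. That of Gucy2e lies inside the GENCODE gene, so its window holds a few bases of that gene.
Gucy2f: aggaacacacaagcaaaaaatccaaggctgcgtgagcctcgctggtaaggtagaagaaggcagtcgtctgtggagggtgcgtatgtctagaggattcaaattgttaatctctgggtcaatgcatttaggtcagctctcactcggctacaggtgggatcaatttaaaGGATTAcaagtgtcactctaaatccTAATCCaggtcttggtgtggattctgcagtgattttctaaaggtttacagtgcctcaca
Gucy2e: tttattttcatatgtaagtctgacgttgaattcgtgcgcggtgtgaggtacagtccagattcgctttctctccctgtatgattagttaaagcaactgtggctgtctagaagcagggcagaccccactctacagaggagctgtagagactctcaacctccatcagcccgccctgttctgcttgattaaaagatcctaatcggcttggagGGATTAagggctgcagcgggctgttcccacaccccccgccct
Guca1a: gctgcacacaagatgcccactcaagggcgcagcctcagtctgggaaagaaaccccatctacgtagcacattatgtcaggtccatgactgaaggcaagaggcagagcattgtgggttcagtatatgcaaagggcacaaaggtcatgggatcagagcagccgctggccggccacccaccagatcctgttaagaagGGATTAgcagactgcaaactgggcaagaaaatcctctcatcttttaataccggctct
Gnb5: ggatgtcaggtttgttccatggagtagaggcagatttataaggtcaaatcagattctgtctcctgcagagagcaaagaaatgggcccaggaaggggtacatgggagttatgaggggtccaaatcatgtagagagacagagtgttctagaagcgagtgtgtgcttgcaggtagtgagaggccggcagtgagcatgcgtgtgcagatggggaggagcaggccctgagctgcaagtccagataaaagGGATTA
Rgs9: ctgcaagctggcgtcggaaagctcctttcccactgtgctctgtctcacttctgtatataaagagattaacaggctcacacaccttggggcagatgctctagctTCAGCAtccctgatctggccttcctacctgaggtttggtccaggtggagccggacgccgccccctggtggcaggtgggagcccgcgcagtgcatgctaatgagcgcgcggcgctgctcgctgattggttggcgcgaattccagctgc
The matches begin 84 and 59 bases before the start in Gucy2f, 42 in Gucy2e, 57 in Guca1a, 6 in Gnb5 and 147 in Rgs9. The CRX-type letters were thus found in both cyclase genes, of which Gucy2f fell and Gucy2e did not pass, and neither set of letters was found in the windows of Grk1 and Slc24a1, which fell. Rgs9 had the most CpG dinucleotides in its window (14), followed by Gucy2e with 9, beside a median of 6 over all windows. Of all windows, 29.4% had at least 14 and 40.3% had at least 9, so neither count was rare. Guca1a, Gucy2f and Slc24a1 had 5, Gnb5 had 3 and Grk1 had 1.

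Grk1, the kinase that phosphorylates light-activated opsin, lies on chromosome 8 (13405081 to 13421951, plus strand, GRCm38; ENSMUSG00000031450.8). Its level was 1177, 1661 and 1257 CPM in Cre- replicates 1 to 3, 1670, 1665 and 947 CPM in tHet, and 293, 527 and 347 CPM in Tet tcKO. All Tet tcKO libraries were below all others, and tHet replicate 3 was the lowest of the control libraries. The log2FC was −1.84 against Cre- (standard error 0.30, limma adjusted p = 0.00041) and −1.87 against tHet (standard error 0.30, limma adjusted p = 0.000413). The Tet tcKO mean was 28.5% of the Cre- mean.

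Rcvrn, the calcium sensor that holds Grk1 back, lies on chromosome 11 (67695326 to 67703333, plus strand; ENSMUSG00000020907.1). It was at 545, 569 and 536 CPM in Cre-, 698, 502 and 605 CPM in tHet, and 176, 193 and 134 CPM in Tet tcKO. The Tet tcKO values were close to one another and far below both controls. Its log2FC was −1.73 against Cre- (standard error 0.23, limma adjusted p = 4.7e-05) and −1.84 against tHet (standard error 0.23, limma adjusted p = 3.5e-05). Kinase and inhibitor fell by similar fitted amounts. The log2 ratio of Rcvrn to Grk1 within a library averaged −1.29 ± 0.22 for Cre-, −1.21 ± 0.54 for tHet and −1.18 ± 0.39 for Tet tcKO (SD, n = 3). The ratio differed by 0.11 between Tet tcKO and Cre- (exact two-sided permutation p = 0.8) and by 0.03 between Tet tcKO and tHet (exact permutation p = 1). A design of 3 against 3 libraries cannot give a p below 0.1.

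The 3 parts of the GTPase-activating complex did not move alike. Gnb5, the Gβ subunit that Rgs9 needs for stability (chromosome 9, 75306288 to 75345876, plus strand; ENSMUSG00000032192.9), was at 265, 223 and 252 CPM in Cre-, 273, 316 and 189 CPM in tHet, and 99.1, 112 and 76.0 CPM in Tet tcKO. No Tet tcKO library reached the lowest control. Its log2FC was −1.37 against Cre- (standard error 0.23, limma adjusted p = 0.000625) and −1.42 against tHet (standard error 0.23, limma adjusted p = 0.000533). Exons of Gnb5 overlap Gm19531 on the opposite strand, a gene that in Cre- was at 7.41 ± 3.89 CPM, compared with 2.73 ± 0.72 CPM for Tet tcKO (SD, n = 3), and the strand setting of the counting is not given in the sources used here. Gnb5 also pairs with other RGS proteins in other neurons, so whole-retina levels are not those of photoreceptors alone.

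Rgs9, the catalytic part (chromosome 11, 109225355 to 109298129, minus strand; ENSMUSG00000020599.13), was at 680, 800 and 813 CPM in Cre-, 900, 981 and 719 CPM in tHet, and 760, 707 and 485 CPM in Tet tcKO. Tet tcKO replicates 1 and 2 lay inside the Cre- range, and replicate 3, the library rich in ribosomal RNA, lay below it. With CT010467.1 left out of the totals, replicate 3 was at 681 CPM and the 3 Tet tcKO libraries spanned 681 to 760 CPM, inside the Cre- span of 680 to 813. The log2FC was −0.25 against Cre- (standard error 0.26, limma adjusted p = 0.787) and −0.43 against tHet (standard error 0.26, limma adjusted p = 0.433). Over the 20 alternative settings the log2FC against Cre- stayed between −0.38 and −0.06 and never passed.

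Rgs9bp, the anchor that holds the complex at the disc membrane (chromosome 7, 35578993 to 35585582, minus strand; ENSMUSG00000056043.5), was at 862, 1128 and 964 CPM in Cre-, 1038, 1192 and 739 CPM in tHet, and 541, 571 and 368 CPM in Tet tcKO. The Tet tcKO libraries were below all controls. Its log2FC, −1.01 against Cre- (standard error 0.27, limma adjusted p = 0.0246) and −1.001 against tHet (standard error 0.27, limma adjusted p = 0.0286), missed the adjusted p threshold. The call sat on the thresholds. Against Cre- it passed with upper-quartile scaling (adjusted p = 0.00257), TMM scaling (0.0021), edgeR (0.00182), DESeq2 (4.6e-11) and the replicate block (0.00799). Against tHet it passed with upper-quartile scaling (0.00294), the replicate block (0.00902) and tHet replicate 3 left out (log2FC −1.20, adjusted p = 0.00834). With TMM scaling against tHet, the limma adjusted p was 0.00351, but the log2FC of −0.93 missed the fold threshold.

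Within libraries, Rgs9 shifted relative to Gnb5 and to Rgs9bp, which were not set against each other. The log2 ratio of Rgs9 to Gnb5 was 1.36, 1.84 and 1.69 for Cre-, 1.72, 1.63 and 1.93 for tHet, and 2.93, 2.65 and 2.67 for Tet tcKO. The Tet tcKO mean was higher by 1.12 than in Cre- and by 0.99 than in tHet, without overlap. The log2 ratio of Rgs9bp to Rgs9 in Tet tcKO differed by −0.76 from Cre- and by −0.57 from tHet, again without overlap. For each of these differences the exact two-sided permutation test gave p = 0.1, the lowest possible here, and 0.133 after Benjamini-Hochberg adjustment over the 16 ratio comparisons. Ratios were taken on CPM + 0.5, a constant that bears on genes of low level such as Guca1a. As plain ratios of reads, chosen after seeing the data, these differences were 1.13 and 0.99 for Rgs9 to Gnb5 and −0.76 and −0.57 for Rgs9bp to Rgs9, again without overlap.

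**Figure D2:**
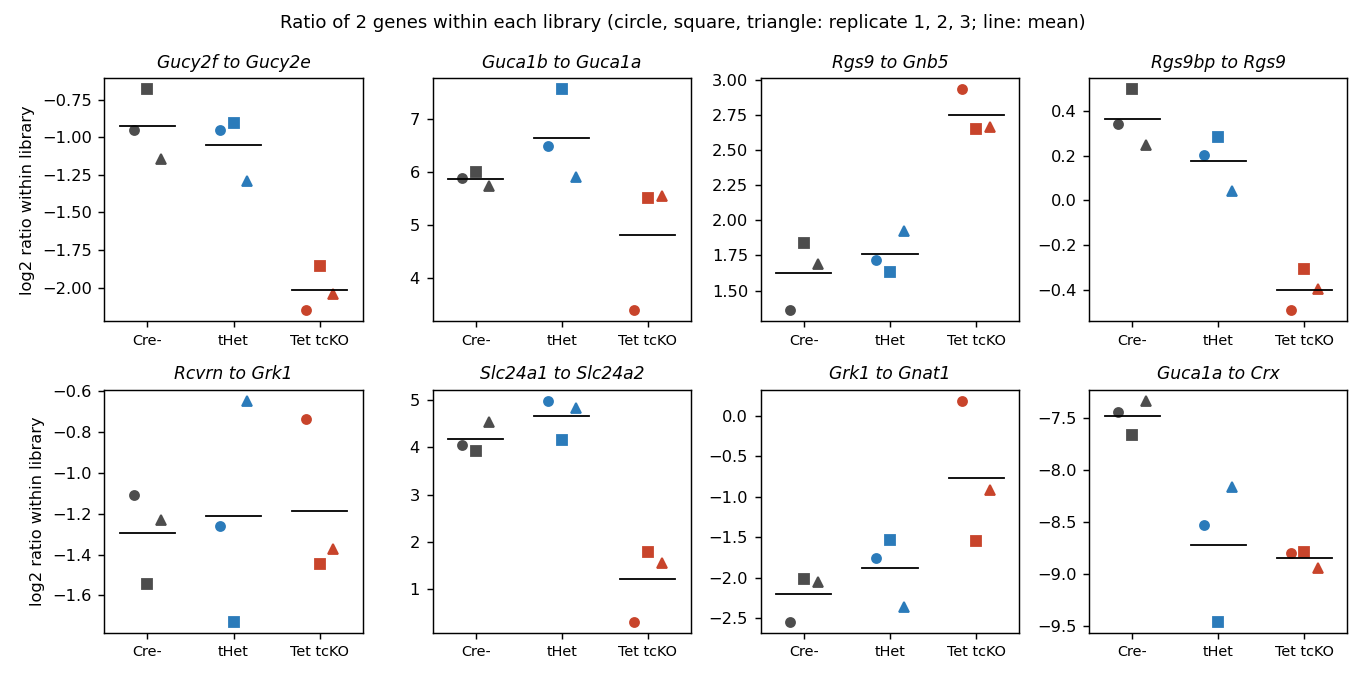
Log2 ratio of 8 pairs of genes within each library, taken on CPM + 0.5 (vertical axes, log2 units with a range of their own per pair) for the 3 libraries of each genotype, with the mean as a line. The ratio of Rgs9 to Gnb5 is higher in all Tet tcKO libraries, that of Gucy2f to Gucy2e is lower, and that of Rcvrn to Grk1 overlaps.

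The 2 guanylate cyclases, which rebuild cGMP after the light response, also differed. Gucy2e (chromosome 11, 69218117 to 69237036, minus strand; ENSMUSG00000020890.11), the cyclase of rods and cones, was at 562, 619 and 550 CPM in Cre-, 602, 768 and 441 CPM in tHet, and 385, 433 and 263 CPM in Tet tcKO. All Tet tcKO values were lower than all controls, with Tet tcKO replicate 2 only just below tHet replicate 3. The log2FC, −0.71 against Cre- (standard error 0.26, limma adjusted p = 0.129) and −0.74 against tHet (standard error 0.26, limma adjusted p = 0.109), did not pass. Its size stayed under the fold threshold in all 20 alternatives (−0.86 to −0.50 against Cre- and −0.95 to −0.53 against tHet). Over the limma, edgeR and DESeq2 settings, the adjusted p ran from 0.000218 to 0.328 against Cre- and from 0.000434 to 0.393 against tHet. Where the adjusted p was under 0.01, the fold threshold alone kept Gucy2e from being called.

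Gucy2f, the second cyclase of photoreceptors (chromosome X, 142081160 to 142196931, minus strand; ENSMUSG00000042282.4), was at 290, 386 and 249 CPM in Cre-, 310, 410 and 180 CPM in tHet, and 86.2, 119 and 63.3 CPM in Tet tcKO. The groups did not overlap. The log2FC was −1.80 against Cre- (standard error 0.29, limma adjusted p = 0.000361) and −1.71 against tHet (standard error 0.29, limma adjusted p = 0.00067). Without Tet tcKO replicate 3 neither call held (log2FC −1.57, adjusted p = 0.0154, and −1.48, adjusted p = 0.0234). The log2 ratio of Gucy2f to Gucy2e was −0.95, −0.68 and −1.14 in Cre- and −2.15, −1.85 and −2.05 in Tet tcKO, a difference of −1.09, and the difference from tHet was −0.97. Both differences had an exact permutation p of 0.1 and no overlap, so that the less abundant cyclase lost the larger share of its level.

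Guca1b, a calcium sensor that activates the cyclases when calcium is low (chromosome 17, 47385393 to 47392967, plus strand; ENSMUSG00000023979.14), had the largest fall of the 10 genes against Cre-. It was at 368, 367 and 362 CPM in Cre-, 278, 389 and 203 CPM in tHet, and 22.9, 100 and 65.3 CPM in Tet tcKO. The Cre- libraries were nearly equal, whereas the Tet tcKO libraries were spread widely, with replicate 1 the lowest. The log2FC was −2.77 against Cre- (standard error 0.36, limma adjusted p = 4.1e-05) and −2.38 against tHet (standard error 0.36, limma adjusted p = 0.000251). Without Tet tcKO replicate 1 it was −2.17 and −1.79, and both calls held (adjusted p = 0.000154 and 0.00126). Without Tet tcKO replicate 3 the call against tHet did not hold (log2FC −2.53, adjusted p = 0.0134).

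Guca1a, the sensor encoded next to it in the opposite orientation (chromosome 17, 47394558 to 47400584, minus strand; ENSMUSG00000023982.8), was counted at a far lower level. It had 97, 82 and 92 reads in Cre-, 36, 15 and 61 in tHet, and 29, 26 and 15 in Tet tcKO, which equal 5.71, 5.22 and 6.21 CPM, then 2.59, 1.56 and 2.89 CPM, and then 1.72, 1.71 and 0.90 CPM. It was the sole member for which all tHet libraries lay below all Cre- libraries, an order that 5.37% of all genes showed. The log2FC was −1.70 in Tet tcKO against Cre- (standard error 0.33, limma adjusted p = 0.00233) and −0.55 against tHet (standard error 0.33, limma adjusted p = 0.438), with overlap between Tet tcKO and tHet. In tHet against Cre- it was −1.16 (standard error 0.33, limma adjusted p = 0.511, unadjusted p = 0.00235). The call against Cre- did not hold without a filter on low values (adjusted p = 0.0128), without Cre- replicate 3 (0.0195) or without Tet tcKO replicate 3 (0.0184). Per kilobase of exon, Guca1a stood at 6.54 CPM in Cre- and Guca1b at 150; the part of gene models in the low Guca1a count was not tested.

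The balance of the 2 sensors depended on the constant added to the low level of Guca1a. With 0.5 CPM added to each gene, the log2 ratio of Guca1b to Guca1a in Tet tcKO differed by −1.06 from Cre- and by −1.84 from tHet (exact permutation p = 0.1 for each). As plain ratios of reads, chosen after seeing the data, there were 64.5, 70.3 and 58.2 reads of Guca1b for each read of Guca1a in Cre-, 107, 250 and 70.3 in tHet, and 13.3, 58.6 and 72.3 in Tet tcKO. Tet tcKO replicates 2 and 3 lay within or above the Cre- range, and replicate 1 was far below it. The log2 difference was then −0.74 from Cre- (exact permutation p = 0.7) and −1.69 from tHet (exact permutation p = 0.2), and 0.02 and −0.92 without Tet tcKO replicate 1. Guca1a relative to Crx, the photoreceptor homeobox gene, differed in Tet tcKO by −1.36 on the log2 scale from Cre- (exact permutation p = 0.1) and by −0.13 from tHet (exact permutation p = 0.8). Without the added constant, these differences were −1.70 (exact permutation p = 0.1) and −0.29 (exact permutation p = 0.5).

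Slc24a1, the exchanger that moves calcium out of the rod outer segment in return for sodium (chromosome 9, 64922861 to 64951607, minus strand; ENSMUSG00000034452.7), was at 2118, 2143 and 2480 CPM in Cre-, 2640, 2225 and 2911 CPM in tHet, and 210, 760 and 402 CPM in Tet tcKO. The lowest control library was thus far above the highest Tet tcKO library. The log2FC was −2.48 against Cre- (standard error 0.36, limma adjusted p = 0.000119) and −2.68 against tHet (standard error 0.36, limma adjusted p = 6.5e-05), the largest fall of the 10 genes against tHet.

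Slc24a2, an exchanger of cones and of many neurons, did not follow. It was at 127, 141 and 106 CPM in Cre-, 82.5, 123 and 101 CPM in tHet, and 171, 220 and 137 CPM in Tet tcKO. Its log2FC was 0.48 against Cre- (standard error 0.23, limma adjusted p = 0.307) and 0.77 against tHet (standard error 0.23, limma adjusted p = 0.0509). Neither passed. The log2 ratio of Slc24a1 to Slc24a2 averaged 4.17 ± 0.33 for Cre-, 4.67 ± 0.44 for tHet and 1.21 ± 0.80 for Tet tcKO (SD, n = 3). In Tet tcKO it differed by −2.96 from Cre- and by −3.46 from tHet, the widest shift of the 8 pairs (exact permutation p = 0.1 for each).

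**Figure D3:**
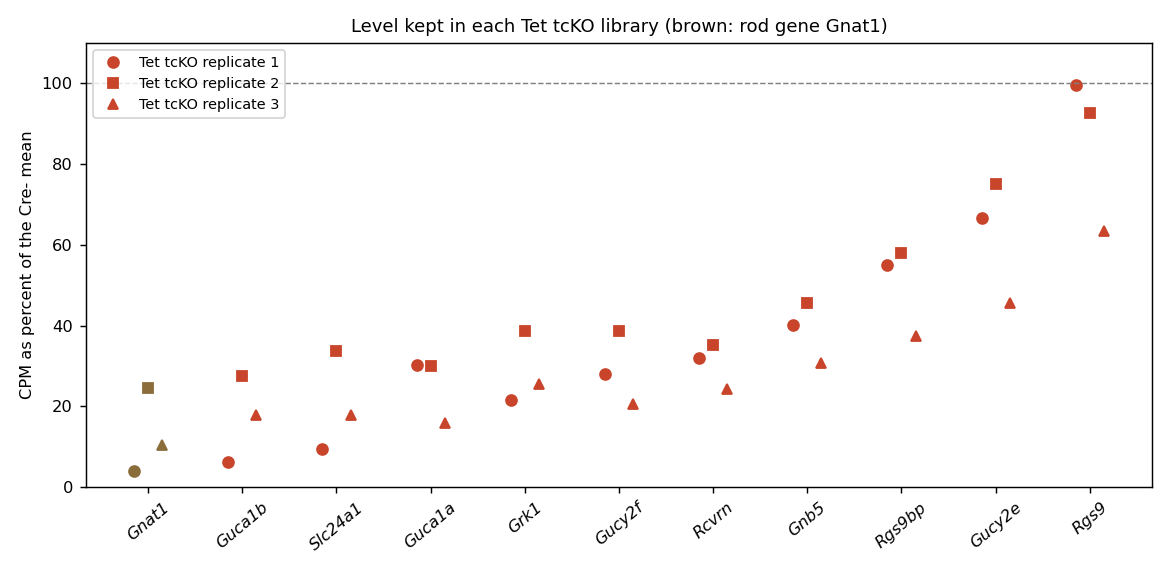
CPM in each Tet tcKO library as a percent of the Cre- mean (vertical axis; the dashed line is 100%) for the 10 members in red and the rod gene Gnat1 in brown. Rgs9 was at 63.5% to 99.4% of the Cre- mean and Gucy2e at 45.6% to 75.0%, whereas Guca1b was at 6.27% to 27.5% and Gnat1 at 4.12% to 24.6%. The lower ends for Rgs9 and Gucy2e came from replicate 3, the library rich in ribosomal RNA. With CT010467.1 left out of the totals, that library was at 89.0% for Rgs9 and 64.0% for Gucy2e.

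The 3 Tet tcKO libraries did not hold the same amounts of these transcripts. Replicate 2 had the highest CPM of 8 of 10 members and the lowest of none. Replicate 3 had the lowest CPM of 7 of 10, but of 4 of 10 once CT010467.1 was left out of the totals, when replicate 1 had the lowest of 6 of 10. The replicate with the least Guca1b (6.27% of the Cre- mean) and Slc24a1 (9.35%), replicate 1, also had the least Gnat1, the rod transducin α subunit (4.12%), while it kept 99.4% of Rgs9, 66.7% of Gucy2e and 54.9% of Rgs9bp. In replicate 2, Guca1b was at 27.5%, Slc24a1 at 33.8% and Gnat1 at 24.6% of the Cre- mean. Grk1 kept more of its level than Gnat1: their log2 ratio was higher by 1.44 in Tet tcKO than in Cre- (exact permutation p = 0.1) and by 1.12 than in tHet, where replicate 2 of Tet tcKO overlapped the controls (exact permutation p = 0.2).

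Compared per kilobase of exon, the order of the levels in Cre- retina ran from Rcvrn (529 ± 16.8 CPM per kb) and Slc24a1 (431 ± 38.8) through Grk1 (155 ± 29.6), Guca1b (150 ± 1.45), Rgs9bp (149 ± 20.4) and Rgs9 (120 ± 11.5) to Gnb5 (79.2 ± 6.87), Gucy2e (62.7 ± 4.02), Gucy2f (37.9 ± 8.66) and Guca1a (6.54 ± 0.57), with the SD over 3 libraries. The neighbours Grk1, Guca1b and Rgs9bp differed by less than that SD. In Tet tcKO retina Rcvrn was still first (161 ± 29.4 CPM per kb), but Rgs9 was second (102 ± 22.8), followed by Slc24a1 (87.7 ± 53.5) and Rgs9bp (74.9 ± 16.6). Grk1 (44.3 ± 13.9), Gucy2e (39.2 ± 9.52), Gnb5 (30.8 ± 5.89), Guca1b (25.8 ± 15.9), Gucy2f (11.04 ± 3.47) and Guca1a (1.66 ± 0.54) came next. From Rgs9 to Rgs9bp and from Grk1 to Gucy2f, neighbours in this order differed by less than the larger SD of the pair. Whole exon lengths were used, so these levels carry the annotation of each gene.

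The 2 control genotypes were not told apart by the test for any of these genes. In tHet against Cre-, 0 of 10 members passed in limma, edgeR or DESeq2, beside 0.0422% of all genes in limma, and 1 of 10 (Guca1a) had an unadjusted limma p under 0.05. Apart from Guca1a, the log2FC ran from −0.38 for Guca1b to 0.20 for Slc24a1. tHet replicate 3 had the lowest CPM of its genotype for Grk1, Rgs9, Rgs9bp, Gnb5, Gucy2e, Gucy2f and Guca1b and the highest for Slc24a1 and Guca1a.

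Other genes of shutoff and calcium handling, listed by function, mostly did not pass. Of 12, only Arr3 rose and only Pdc fell against Cre-, and likewise against tHet, and the median log2FC of the list was −0.05 and −0.21. Sag, the arrestin of rods, was at 4342, 4140 and 4039 CPM among Cre- libraries and 1913, 2662 and 1777 CPM among Tet tcKO libraries, without overlap, yet its log2FC of −1.001 missed the threshold on the adjusted p (standard error 0.33, limma adjusted p = 0.0848). Arr3, cone arrestin, rose from 82.1, 140 and 90.1 CPM in Cre- to 279, 370 and 260 CPM (log2FC 1.56, standard error 0.23, limma adjusted p = 0.00017). Pdc, phosducin, which binds the transducin βγ subunits, fell from 3609, 3069 and 4067 CPM to 1307, 1369 and 1040 CPM (log2FC −1.53, standard error 0.32, limma adjusted p = 0.00367). Rd3, a partner and inhibitor of the photoreceptor cyclases, was at 115, 143 and 122 CPM among Cre- and 168, 142 and 105 CPM among Tet tcKO libraries, with overlap (log2FC 0.11, standard error 0.22, limma adjusted p = 0.928). A rise of cone arrestin stood beside falls of Grk1 and Rcvrn, which rods and cones both use. These are levels of whole retina, and the levels in cones alone were not measured.

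**Figure D4:**
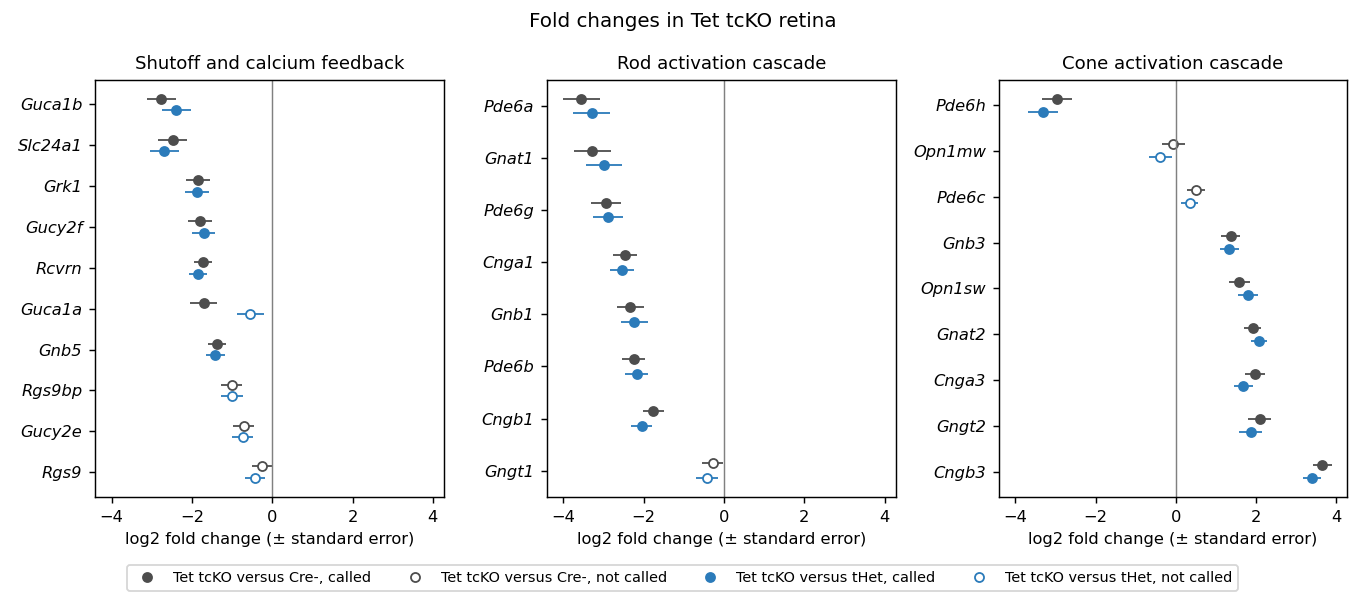
Log2 fold change in Tet tcKO retina (horizontal axis, log2 units, with the standard error as bars) against Cre- in grey and tHet in blue, for the members and for the rod and cone activation genes, with filled points for genes called. All points of the members are below 0, 7 of 8 rod genes fell, and 6 of 9 cone genes rose.

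Among the genes that start the light response in rods, 7 of 8 fell against both controls and Gngt1 did not pass. Their median log2FC was −2.40 against Cre-, further down than the −1.72 of the shutoff genes, and that of Gnat1 was −3.28 (standard error 0.45, limma adjusted p = 8.2e-05). Of the corresponding cone genes, 6 of 9 rose and 1 fell. The largest rise was that of Cngb3, the cone channel β subunit, from 60.5, 77.1 and 75.0 CPM in Cre- to 1110, 948 and 671 CPM in Tet tcKO (log2FC 3.65, standard error 0.23, limma adjusted p = 2.3e-09). The gene that fell was Pde6h, the cone phosphodiesterase γ subunit (log2FC −2.95, standard error 0.37, limma adjusted p = 2.4e-05). Among relatives of the members outside this pathway, 1 of 22 tested rose against Cre- and the other 21 did not pass, with a median log2FC of −0.10; against tHet, 2 of 22 rose, Gnb2 and Hpcal4 (log2FC 1.14, limma adjusted p = 0.00959). The gene that rose against both controls was Gnb2, a Gβ subunit of many cell types, from 19.9, 14.3 and 20.1 CPM to 54.6, 44.1 and 31.9 CPM (log2FC 1.23, standard error 0.25, limma adjusted p = 0.00299).

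The lists of cell type markers share genes with the lists above, so they are not separate evidence. Gnat1 and Cnga1 are also in the rod activation list, and all cone markers but Arr3 are also in the cone activation list. In Cre- retina Gnat1 averaged 6269 CPM, beside a mean rod marker sum of 8397 CPM. The 4 rod markers used (Nrl, Nr2e3, Gnat1 and Cnga1) fell against Cre-, and their summed level was 7371 to 8921 CPM for Cre-, 6948 to 8179 CPM for tHet and 500.4 to 2174 CPM for Tet tcKO. Of 6 cone markers 4 rose and 1 fell against each control, and their sum was 373 to 489, 407 to 540 and 847 to 1205 CPM in the same genotypes. The sum of the 4 markers shared by all photoreceptors overlapped between genotypes (1402 to 1551, 1282 to 1827 and 1089 to 1476 CPM), and of these Prdm1 rose. The sum hides unlike moves. Crx was at 1084, 1160 and 1086 CPM in Cre-, 1145, 1450 and 972 CPM in tHet, and 991, 982 and 690 CPM in Tet tcKO. The Tet tcKO libraries lay below all Cre- libraries but overlapped tHet, and Crx did not pass against either control. Its lowest value came from Tet tcKO replicate 3, the library rich in ribosomal RNA. Neurod1 was higher in every Tet tcKO library than in every Cre- library and did not pass, and Otx2 overlapped. Pigment epithelium markers, which can adhere to a dissected retina, summed to 50.8 to 204, 151 to 192 and 26.9 to 39.0 CPM, with 3 of 5 lower against Cre- and 4 of 5 lower against tHet. Microglia markers summed to 18.3 to 26.0, 26.7 to 36.3 and 30.6 to 59.7 CPM. Of these 5, Cx3cr1 rose against Cre- (log2FC 1.31, limma adjusted p = 0.00935) and did not pass against tHet (log2FC 0.64, limma adjusted p = 0.283). Against Cre-, 1 bipolar marker rose and 2 fell of 7 (against tHet the 2 falls did not pass), 1 Müller glia marker rose and 2 fell of 5, 1 amacrine marker fell of 5, and the 3 horizontal, 5 ganglion, 4 blood and 4 tested lens markers did not pass. The lens gene Lim2 was at 0 in 8 of 9 libraries and at 1 read in the other. The part of cell composition in the falls of the members was not tested.

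The profile of the 10 members over the 9 libraries, taken as the mean of their centred log2(CPM + 0.5) values, was most closely followed by Stk35, C4bp-ps1, Ybx3, Strip2 and Rp1, at Euclidean distances of 0.37, 0.39, 0.40, 0.40 and 0.42. Rp1, a microtubule protein of the photoreceptor axoneme, had 4679 ± 477 CPM for Cre-, 4361 ± 1254 for tHet and 1638 ± 313 for Tet tcKO (SD, n = 3). Ybx3, a nucleic acid-binding protein, had 297 ± 6.85, 306 ± 60.8 and 92.3 ± 22.0 CPM. These genes were found by likeness to the members, and their levels are given as a description.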

How the data were processed

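Total retinal RNA was depleted of ribosomal RNA, made into stranded libraries and sequenced in a single pool. Per the study's methods and the submitters' processing notes, the authors trimmed reads with Trim Galore 0.6.7, aligned them to mm10 with STAR 2.7.0f and counted them on genes with HTSeq 0.11.2; the annotation release, strand and overlap settings are not given in the sources used here. The authors deposited plain CPM values per library, all whole multiples of 1 read within 0.01 reads, or within 1e-06 of the value for large values. Beside these, the authors deposited the log2 fold changes, log2 mean CPM, p-values and FDR values that edgeR gave them, and none of these columns was used.

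Samples were grouped by the genotype in their labels. Nothing beyond the labels and methods shows that the libraries of a genotype are independent, so p-values measure the spread between these libraries; no pair of libraries was identical. A gene entered the test with 0.5 CPM or more in 3 or more libraries. Tests used limma 3.58.1 (R 4.3.3) and log2(CPM + 0.5) values (intensity trend, 1 mean per genotype, all 9 libraries) and Benjamini-Hochberg adjustment over 21330 genes; the log2FC are on this scale, which understates changes of low genes. Ratios were taken on CPM + 0.5, and without it as an alternative chosen after seeing the data, with exact permutation tests. Alternatives included other pseudocounts, filters and scalings, edgeR 4.0.16 and DESeq2 1.42.0 on the recovered reads, and leaving out single libraries. The fits were first tested on simulated data. Positions and exon lengths come from GENCODE release 21 for mouse, which 55141 gene identifiers matched.

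The members and lists were chosen with earlier results of these data known. The rule for names took all members, 5 genes of shutoff and calcium handling, the largest called rise and fall of each other list (in the rod list, Gnat1 is named in place of the largest fall), and the 5 nearest profiles. Genes outside the rule that the text names (the Tet genes, CT010467.1, Gm19531, Gngt1, Prdm1, Lim2, Cx3cr1, Hpcal4, Slc24a4 and Crx and Gnat1 in ratios) serve as checks or controls or single out exceptions. 1 gene of the rod lists is not reported here. The list of relatives held 26 symbols, of which 24 were found in the table. The symbols not found were Adrbk1 and Adrbk2, older names of Grk2 and Grk3, which were found. Figures were drawn with matplotlib 3.10.9.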

Additional observations from a re-analysis of the deposited data

How the results depend on the processing

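The count of members called lower ran from 5 to 8 against Cre- and from 4 to 7 against tHet over the alternatives, and was 0 in tHet versus Cre- in each of them. Both lowest counts came without Tet tcKO replicate 3. In the comparisons of Tet tcKO with Cre- and with tHet, each member kept its negative sign in all 20 alternatives. Members with few reads are limited by depth: Guca1a rests on 15 to 97 reads per library.

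Counts over all genes moved more. Against Cre-, 768 genes were called; without a filter there were 417, with an adjusted p under 0.05 there were 1156, and leaving out a library in turn gave 360 to 976. Against tHet, 640 genes were called; there were 351 without a filter, 1046 by DESeq2, 1013 with the 6 libraries compared, 1104 with an adjusted p under 0.05, and 287 to 959 leaving out a library. In tHet versus Cre-, 9 genes were called (970 had an unadjusted limma p under 0.05); there was 1 without a filter, 1 with upper-quartile scaling, 1 with TMM scaling, 1 by edgeR, 1 with the 6 libraries, 1 with CT010467.1 left out, 40 by DESeq2, 20 with an adjusted p under 0.05, and 0 to 17 leaving out a library. The cause of these shifts was not tested.

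Libraries of different genotypes that share a replicate number had deviations correlated by −0.35 to 0.56 (9 pairs, mean 0.11). Those with different numbers gave −0.57 to 0.50 (18 pairs, mean −0.05). The ranges overlapped, and the numbers were not taken as a pairing. With the replicate block, 1127 genes were called against Cre-, 1125 against tHet and 40 in tHet versus Cre-; among the members the block changed the call of Rgs9bp alone.

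In tHet versus Cre-, small fold changes changed sign. Grk1 was at −0.025 with TMM scaling, −0.0091 by edgeR and −0.012 by DESeq2; Gnb5 at −0.015, −0.020 and −0.025; Gucy2e at −0.027, −0.017 and −0.021; and Rgs9bp at 0.0068 with CT010467.1 left out. Leaving out a library gave −0.10 to 0.31 for Grk1, −0.16 to 0.18 for Rgs9bp, −0.12 to 0.26 for Gnb5, −0.16 to 0.24 for Gucy2e and −0.36 to 0.24 for Gucy2f. For the log2 ratio of Rcvrn to Grk1 it gave −0.11 to 0.24 against Cre- and −0.23 to 0.31 against tHet, and for Guca1a to Crx −0.50 to 0.15 against tHet.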
